A study of Arabidopsis thaliana with 6 samples.

Results

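Class III peroxidases are secreted haem enzymes of plants. The genes described here are 7 loci of this family that were listed together for expression in root hair cells or the root epidermis. That grouping was taken as given and was not checked in these data. Of the 7, 6 have a probe set annotated to them alone, out of 13286 genes measured in this way in the series. They are AT1G34510, AT3G49960, AT4G26010, AT4G30170, AT4G33420 and AT1G30870. The other, AT5G22410 (RHS18, root hair specific 18), had no probe set of its own or shared with another gene in the annotation and is not analysed here. The loci were proposed with it already known that some of them were lower in spy-3, so their difference between the genotypes is given as a description and no test is drawn from it. Each of the 6 had 1 probe set, so no choice between probe sets was needed.

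Wild type and spy-3 roots of *Arabidopsis thaliana* were compared, with 3 Affymetrix ATH1 arrays for each genotype. Wild type was the ecotype Col, and spy-3 was a mutant of SPINDLY (SPY), an O-linked sugar transferase, with the same ecotype given in its labels. Both were seedlings of 7 d, grown upright on MS agar under long days, and RNA was taken from the whole root. The purpose of the comparison was to find the genes that the spy mutation alters in the root.

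Root hairs are tubular outgrowths of single epidermal cells, and they grow at the tip by adding new wall material. Class III peroxidases use hydrogen peroxide to oxidise phenolic groups, which cross-links wall proteins and lignin, and under other conditions they form reactive oxygen species that can loosen the wall. In growing hairs they work in the same wall as extensins, which are structural glycoproteins, and expansins, which loosen cellulose networks.

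All 6 measured peroxidases had less transcript signal in spy-3 than in wild type, by 1.25-fold to 1.90-fold, and in all 6 the wild type arrays lay above the spy-3 arrays without overlap, as they did for 11.5% of all probe sets. The median log2 difference, spy-3 minus wild type, was -0.45, against 0.02 over all 22746 probe sets. The differences were largest for AT4G33420 and AT1G34510, followed by AT3G49960, and those of AT1G30870, AT4G30170 and AT4G26010 lay within their standard errors of each other. Signals of different probe sets depend on their probes, so the levels of the 6 genes are not ranked against each other.

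AT4G33420 showed the largest difference of the 6. Its signal was 690.6, 667.9 and 589.8 on the wild type arrays and 308.5, 349.9 and 365.8 on the spy-3 arrays. The means were 649.4 ± 52.9 (SD, n = 3) and 341.4 ± 29.6 (SD, n = 3), or 1.90-fold lower in spy-3, with a log2 difference of -0.93 (standard error 0.09). The lowest wild type array was 1.61-fold above the highest spy-3 array. Wild type replicate 3 and spy-3 replicate 1 were the low arrays of their genotypes, and the spread was 8.14% of the mean in wild type and 8.66% in spy-3, the widest of the 6 genes in wild type.

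AT1G34510 was the next. Its wild type signals of 835.4, 809.9 and 830.5 lay close together, with a coefficient of variation of 1.64%. In spy-3 the signals were 433.1, 488.9 and 469.7. The means were 825.3 ± 13.5 (SD, n = 3) and 463.9 ± 28.3 (SD, n = 3), so that spy-3 was 1.78-fold lower, with a log2 difference of -0.83 (standard error 0.05). This gene had the widest gap between the genotypes, 1.66-fold from the lowest wild type to the highest spy-3 array. The study itself picked AT1G34510 and AT4G33420 from these arrays for RT-PCR, so both were already known to be lower on them. By RT-PCR it reports reduced transcript in spy-3 for most of the genes it examined, and its text does not name the exceptions.

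AT3G49960 had signals of 793.0, 812.7 and 844.2 in wild type and 615.7, 544.9 and 520.0 in spy-3. The means were 816.6 ± 25.8 (SD, n = 3) and 560.2 ± 49.7 (SD, n = 3), with a log2 difference of -0.55 (standard error 0.07), or 1.46-fold lower. It differed from the other members in its spread over the spy-3 arrays, where replicate 1 was the highest, while replicate 1 was the lowest spy-3 array for AT1G34510, AT4G33420, AT4G30170 and AT1G30870.

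The other 3 genes had smaller differences. AT1G30870 had signals of 2589.9, 2805.5 and 2955.1 in wild type and 2042.3, 2232.4 and 2219.6 in spy-3. The wild type mean was 2784 ± 183.6 (SD, n = 3), the spy-3 mean was 2165 ± 106.3 (SD, n = 3) and the log2 difference was -0.36 (standard error 0.06). The gap between the genotypes was the narrowest of the 6, with the lowest wild type array 1.16-fold above the highest spy-3 array.

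AT4G30170 had signals of 4227.4, 4242.0 and 4506.5 in wild type and 3247.3, 3532.3 and 3440.8 in spy-3. This corresponded to means of 4325 ± 157.1 (SD, n = 3) and 3407 ± 145.5 (SD, n = 3), a log2 difference of -0.34 (standard error 0.05). Its lowest wild type array was 1.20-fold above its highest spy-3 array.

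AT4G26010 had signals of 2698.2, 2680.2 and 2511.9 in wild type and 2109.6, 2149.2 and 2032.4 in spy-3. The means were 2630 ± 102.8 (SD, n = 3) and 2097 ± 59.4 (SD, n = 3), a log2 difference of -0.33 (standard error 0.04), which at 1.25-fold was the smallest of the 6. The spy-3 arrays agreed best for this gene, within a coefficient of variation of 2.83%.

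**Figure D1:**
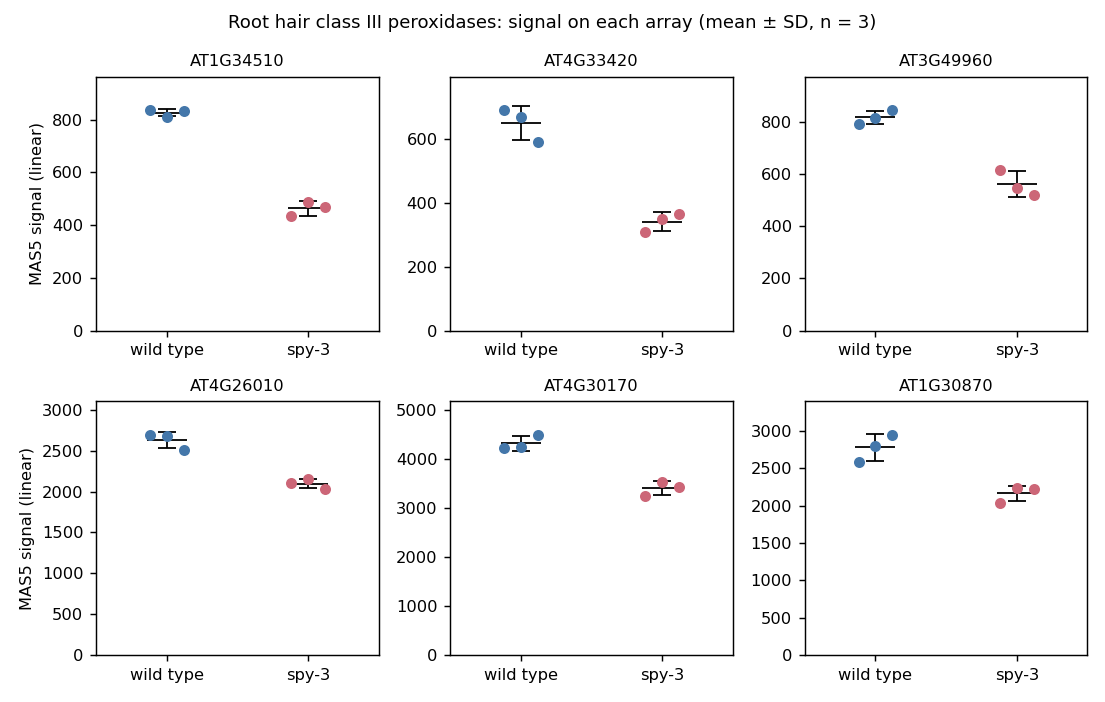
MAS5 signal on a linear scale (vertical axis, from 0) of the 6 measured peroxidases on each of the 3 wild type arrays (blue) and 3 spy-3 arrays (red), with the mean and SD as black lines. For every gene the 3 wild type points lie above the 3 spy-3 points, with the widest gap for AT1G34510 (1.66-fold) and the narrowest for AT1G30870 (1.16-fold).

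In limma, a linear model that shares variance information across probe sets, 6 of the 6 genes passed an adjusted p of 0.05 (Benjamini-Hochberg over all 22746 probe sets) as lower in spy-3. Of all probe sets, 3.13% did so, or 5.42% of those above the median signal, where all 6 genes lie. Non-overlapping arrays with wild type higher were found for 15.6% of the brighter probe sets. These shares stand beside the counts as the background, and nothing is read from them because the difference itself entered the choice of the genes. The count was 2 without wild type replicate 2 (AT1G34510 and AT4G33420), 3 without spy-3 replicate 3, 4 without wild type replicate 1 and 5 without any 1 of the other arrays. It was also 3 in limma without the mean-variance trend and 3 by the analysis of variance that the methods name.

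The study asked for a 1.5-fold change together with a false discovery rate of 0.01. The study applied these limits to its analysis of variance, and here they were applied to limma. AT1G34510 and AT4G33420 were then the 2 genes that passed, against 0.800% of all probe sets lower in spy-3. AT3G49960 lay just outside, at 1.46-fold. The log2 differences themselves moved little. Their median was -0.49 to -0.44 when any 1 array was left out and -0.46 to -0.43 under other normalizations, offsets, filters and designs.

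**Figure D2:**
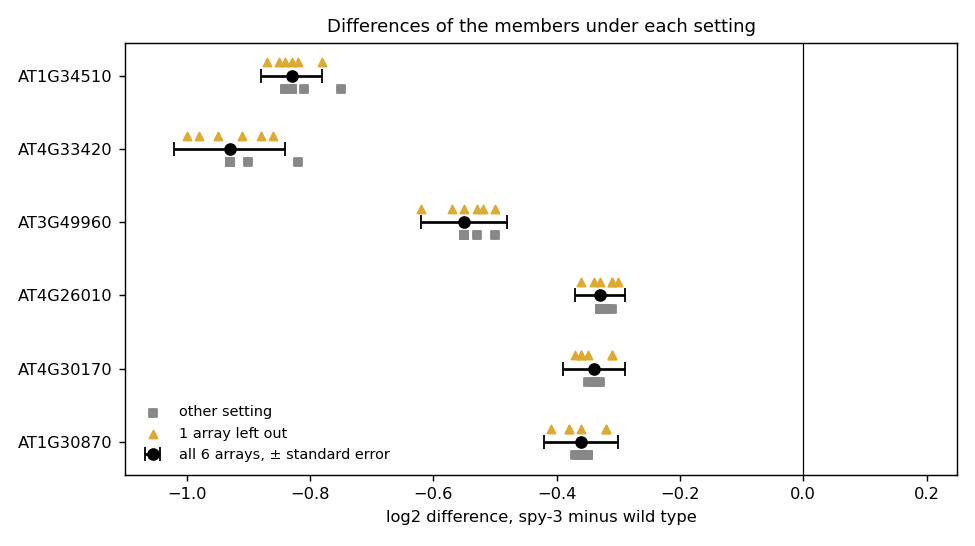
Log2 difference, spy-3 minus wild type (horizontal axis), of the 6 peroxidases with all 6 arrays (black, ± standard error), with 1 array left out (yellow triangles) and under other settings (grey squares). All values stay below 0, and the value nearest to 0 is -0.30, for AT4G26010.

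The median probe set had a mean log2 signal of 6.42. Among the 11373 probe sets brighter than this, the decreases ranked 72 for AT4G33420, 105 for AT1G34510 and 265 for AT3G49960. AT1G30870, AT4G30170 and AT4G26010 ranked 613, 659 and 725. Many other probe sets of this brightness thus had larger decreases than these 3 genes.

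Within a genotype the deviations of the 6 genes were mixed in sign. In wild type, 3, 3 and 4 of the 6 lay above their genotype mean on replicates 1, 2 and 3, and the mean deviation of an array was between -0.005 and 0.004 on the log2 scale. In spy-3, replicate 1 was the lower array, with 2 of 6 genes above their mean and a mean deviation of -0.04, and replicate 2 the higher, with 5 of 6 and 0.036. Over all 6 arrays the 15 pairs of genes had Pearson coefficients of 0.86 to 0.98. These coefficients rest on 6 points that share arrays and scaling, and they carry the difference between the genotypes in every pair.

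The 5 genes whose profile over the 6 arrays was most like the mean profile of the peroxidases were AT1G31710, AT5G64120, AT4G31250, AT1G33700 and AT2G38870, among 5959 genes with a signal above the median. Each had a Pearson coefficient of 0.997 or more. AT1G31710 is a copper amine oxidase, an enzyme that releases hydrogen peroxide, and its signal was 908.6, 920.8 and 880.8 in wild type and 419.6, 460.4 and 453.4 in spy-3. AT5G64120 (PRX71) is itself a class III peroxidase, with 3671.9, 3536.2 and 3546.8 in wild type and 1765.9, 1930.4 and 1906.7 in spy-3. They were 2.03-fold and 1.92-fold lower in spy-3, and the study chose both for RT-PCR because of these same arrays. AT4G31250, AT1G33700 and AT2G38870 were 1.26-fold, 1.64-fold and 1.35-fold lower. A lower signal of all 5 in spy-3 follows from their choice by profile, and no shared function of the 5 was tested. A coefficient above 0.95 was reached by 196 genes and one above 0.9 by 363, so that a like profile over 6 arrays sets few genes apart.

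None of the nearest measured neighbours of the peroxidase genes on the chromosomes passed the test. For each of the 6 genes the nearest measured protein-coding gene on either side was taken from the gene order of RefSeq, which gave 12 genes, none of them a class III peroxidase. Of the 12, 0 were lower and 0 were higher in limma at an adjusted p of 0.05, and 1 had an unadjusted p of less than 0.05. Of all probe sets, 3.13% were lower and 2.64% higher at that adjusted p. A count of 0 among 12 lies near these shares, so nothing is read from it. By the analysis of variance the counts were also 0 and 1. The median log2 difference was -0.02. The gene before AT3G49960, AT3G49950, had the lowest difference, -1.97, at means of only 5.60 in wild type and 1.43 in spy-3 (adjusted p = 0.0867 from limma). The gene next to AT1G30870, AT1G30880, had means of 1313 in wild type and 1385 in spy-3 (log2 difference 0.08, adjusted p = 0.476 from limma). PEP (AT4G26000), next to AT4G26010, had means of 181.6 and 183.8 (log2 difference 0.01, adjusted p = 0.948 from limma). Several of the other neighbours had signals far below the median, and there a change could be missed. The 3 neighbours given with values were chosen after these were seen.

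Most of the rest of the peroxidase family did not pass the test. Of 66 other loci, 49 were measured, of which 3 were lower, 4 were higher and 42 did not pass in limma at an adjusted p of 0.05. The higher share of all probe sets was 2.64%. The median log2 difference of the 49 was 0.06, and for the 26 with a signal above the median it was 0.01, with a range from -0.94 to 0.49. These 26 held all 3 lower and all 4 higher genes, and 5.42% of all probe sets above the median signal were lower. The rest of the 49 were dimmer, and there a change could be missed. The lower genes were AT5G64120, AT4G36430 and AT2G37130, with log2 differences of -0.94, -0.46 and -0.30 (limma, adjusted p = 0.000524, 0.00655 and 0.0456). The higher genes were AT5G51890, AT2G39040, AT5G40150 and AT5G14130, with log2 differences of 0.49, 0.42, 0.38 and 0.19 (limma, adjusted p = 0.00331, 0.00619, 0.0264 and 0.0231). Of these 7, AT5G64120 and AT5G51890 follow from the rule for named genes, and the other 5 were picked once their values had been seen. The count of higher genes was 2 without any 1 array other than wild type replicate 3, when it was 3. Whether the root hair group differs from the rest of the family was not tested.

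**Figure D3:**
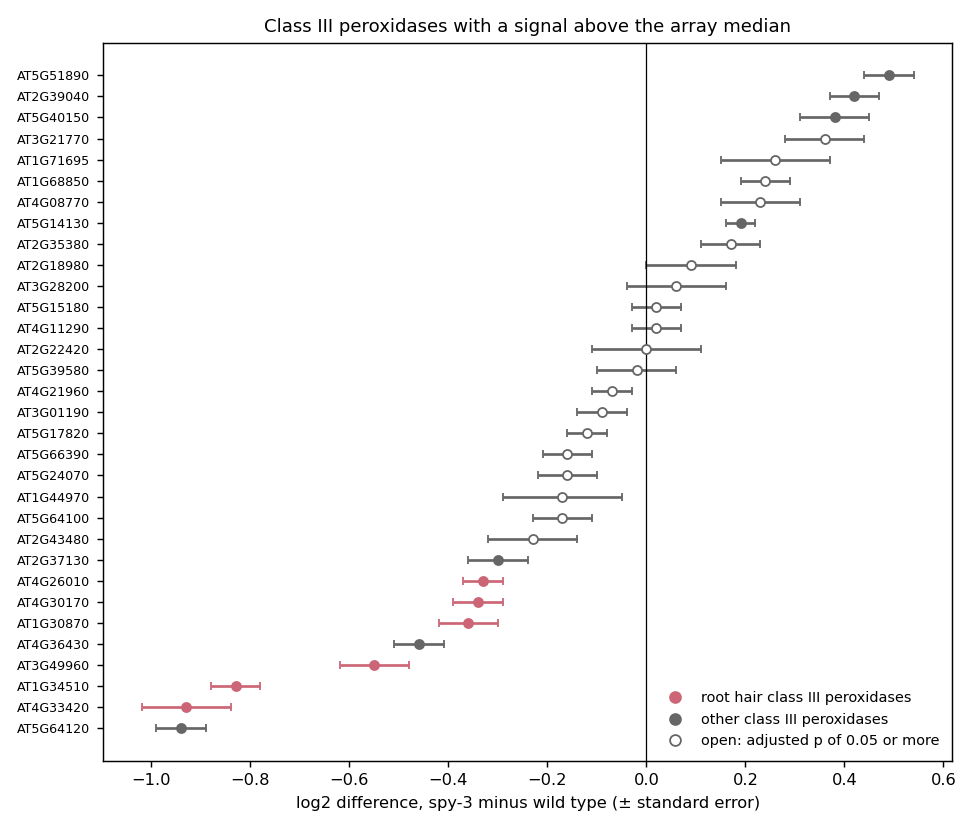
Log2 difference, spy-3 minus wild type (horizontal axis, ± standard error), of the 32 class III peroxidases with a mean signal above the median, in order of the difference. Red points are the 6 root hair peroxidases, grey points the other 26, and open points did not pass an adjusted p of 0.05 in limma. The red points lie between -0.93 and -0.33, and the grey points between -0.94 and 0.49.

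Other genes of the root hair were lower on the same arrays. A list of 50 genes of hair growth and of the hair cell wall, without peroxidases, had 9 measured genes, of which 6 were lower, 0 were higher and 3 did not pass in limma at an adjusted p of 0.05. The count of higher genes was also 0 at an unadjusted p of 0.05 and by the analysis of variance. Their median log2 difference was -0.44, beside -0.45 for the peroxidases. The list was written with it known that some root hair genes were lower on these arrays, so its direction is not independent evidence.

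Expansin EXPA7 had signals of 913.3, 966.3 and 943.7 in wild type and 674.6, 717.0 and 694.5 in spy-3 (log2 difference -0.44, standard error 0.04, adjusted p = 0.00274 from limma). AT3G54580 had a mean of 590.9 ± 19.6 (SD, n = 3) on the wild type arrays, and the spy-3 mean was 332.6 ± 16.5 (SD, n = 3), for a log2 difference of -0.83 (limma, adjusted p = 0.00083). AT5G04960 and AT4G08410 had log2 differences of -0.47 and -0.42 (limma, adjusted p = 0.0012 and 0.00689). In all 4 of these genes the 3 wild type arrays lay above the 3 spy-3 arrays. The same held for 15.6% of the probe sets above the median signal. Because the 4 were named for their low adjusted p, nothing is read from this.

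The other 5 measured genes of the list fall outside the rule for named genes. AT5G06630 had a log2 difference of -0.85 (adjusted p = 0.0154 from limma), and the expansin EXPA18 one of -0.29 (adjusted p = 0.018 from limma). XTH26, of the xyloglucan endotransglucosylase family, and AT3G28550 had log2 differences of -0.79 and -0.42 and did not pass (limma, adjusted p = 0.12 for both). SCN1, a regulator that restricts hair initiation to its proper site, had signals of 1274.7, 1241.3 and 1281.8 in wild type and 1244.1, 1341.4 and 1298.9 in spy-3, a log2 difference of 0.03 (adjusted p = 0.73 from limma). Its genotypes overlapped. The probe sets of AT4G08410 and AT5G06630 are of the kind whose probes can match other transcripts, so their values are uncertain, whereas those of the 6 peroxidases are not of that kind.

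**Figure D4:**
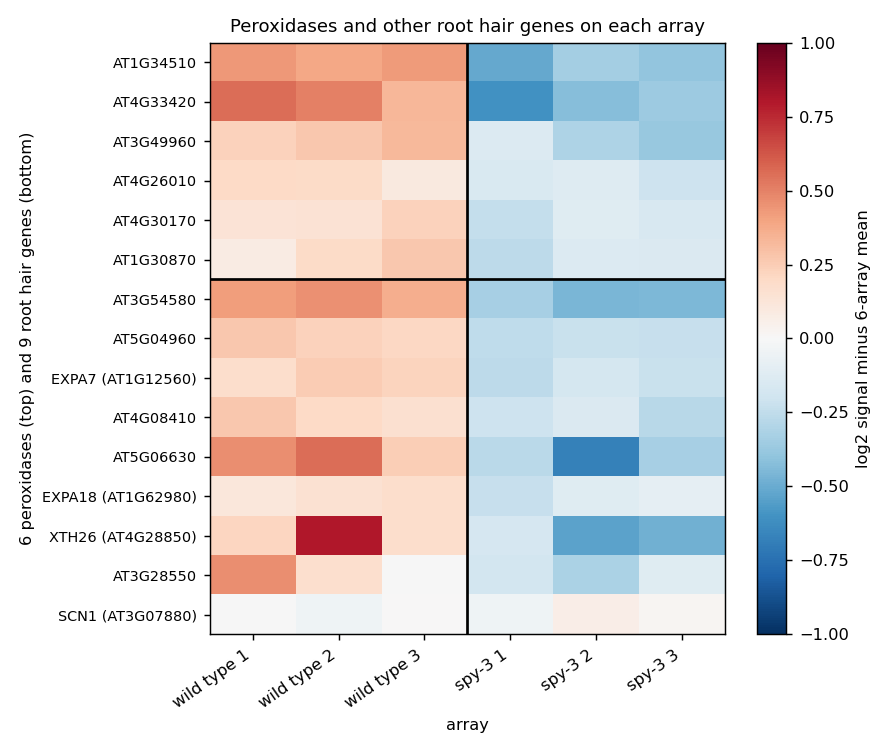
Log2 signal minus its mean over the 6 arrays (colour, from -1 to 1) of the 6 peroxidases (upper rows) and the 9 measured root hair genes (lower rows) on each array (columns). The wild type columns are above the mean and the spy-3 columns below it in nearly every row, while SCN1, with a log2 difference of 0.03, shows almost no colour.

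RNA came from whole roots, so fewer hair cells, less transcript per hair cell and a larger share of other tissue cannot be told apart. According to the paper, an extra cortex layer forms earlier in spy-3 roots than in wild type. Its part in the differences was not tested. Of the 9 listed regulators of hair cell fate 1 was measured. It was TRY, a small MYB protein that inhibits the non-hair fate, with signals of 18.3, 31.5 and 19.4 in wild type and 30.0, 28.7 and 37.7 in spy-3 (adjusted p = 0.412 from limma). This gene is dim, which puts it outside the rule for named genes, and its genotypes overlapped. The label of the 6 genes could not be checked cell by cell, and of the 7 loci only the unmeasured AT5G22410 has root hair in its RefSeq name.

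Of the measured markers of other tissues, 1 passed the test. The log2 differences of the 3 green tissue markers and of the 2 cortex and endodermis markers were all below 0. Their medians were -0.57 and -0.76, beside -0.45 for the peroxidases, so a decrease was not limited to genes of the root hair. Of 10 listed green tissue markers 3 were measured, with a summed signal of 436.5 to 478.6 in wild type and 293.5 to 326.6 in spy-3. RCA, the Rubisco activase, made up most of it and was lower, with a log2 difference of -0.57 (limma, adjusted p = 0.0027). SBPASE and PRK, both of the Calvin cycle, were outside the rule for named genes. They were dim in wild type, with signals of 23.4 ± 10.3 (SD, n = 3) and 6.60 ± 1.85 (SD, n = 3). Their log2 differences were -1.43 and -0.19 (limma, adjusted p = 0.393 and 0.948), and for both the genotypes overlapped. Of 10 cortex and endodermis markers 2 were measured, with a summed signal of 144.6 to 162.4 in wild type and 93.1 to 128.9 in spy-3. The cortex marker AT1G62500, chosen after its values were seen, had 56.2, 59.5 and 57.5 in wild type and 19.2, 34.6 and 17.3 in spy-3 (adjusted p = 0.0517 from limma), and JKD had a log2 difference of -0.16 (adjusted p = 0.667 from limma). None of the 10 xylem and phloem markers or the 8 root tip markers had a probe set of its own in the annotation used. Such markers may still be among the probe sets without a listed gene. The part of these tissues in the peroxidase differences was not tested.

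Of the series as a whole, the arrays had median signals of 85.4 to 87.2 and were scaled alike. Arrays of 1 genotype correlated with coefficients of 0.958 to 0.966 and arrays of different genotypes with 0.952 to 0.963. The number of arrays limits the precision: with 3 per genotype, 0.1 is the smallest p that an exact two-sided permutation test can reach.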

How the data were processed

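RNA of whole roots was hybridised to 6 ATH1 arrays, 3 of wild type and 3 of spy-3. MAS5, the tool in the submitters' processing notes, gave the deposited intensity of each probe set, which is linear and was scaled by the authors to a common mean per array. The MAS5 version was not given in the sources used here, nor were its settings. After a floor of 1, the log2 of each signal was taken, and no normalization was added. Wild type and spy-3 were compared in limma (version 3.58.1, R 4.3.3, eBayes with a mean-variance trend) over all 22746 probe sets, with Benjamini-Hochberg adjustment, and a gene was called at an adjusted p of 0.05. The methods name an analysis of variance, cited from an earlier study, which was run for each probe set as an alternative. Tables were handled with Python 3.11.15 and pandas 2.3.3.

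A locus of RefSeq was found for 13436 of the 13513 probe sets annotated to 1 gene (TAIR10.1, used for names and gene order only). Where several probe sets measured 1 gene, the one of highest mean signal was taken. The 8730 probe sets without a listed gene and the 503 with several entered the test but are not named.

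The members and gene lists were chosen with earlier results of these data known. The genes named are all members, up to 4 genes of lowest adjusted p above the median signal in each list, and the 5 genes most like the mean profile of the members. Genes outside this rule are pointed out in the text. The methods call the replicates biological and do not say whether they were separate harvests. Whether the spread behind each p-value includes that between harvests is therefore not known. In all, 17 alternatives were tried, 6 of them leaving out 1 array.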

Additional observations from a re-analysis of the deposited data

How the results depend on the processing

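The log2 differences of all 6 peroxidases stayed below 0 under each alternative that recomputed them, which leaves out those of the variance model, the test and the thresholds. Of 78 such values, 77 moved by less than the spread between arrays, and the exception was AT1G34510 with an offset of 64 (-0.75). The median of the 6 was -0.49 to -0.44 with 1 array left out. The count of peroxidases called lower, 6, was 2 to 5 with 1 array left out. It was 3 without the trend, 3 by the analysis of variance and 2 at the limits of the study. Those limits, 1.5-fold and an adjusted p of 0.01, were applied to limma. For the root hair genes the count was 4 to 6 with 1 array left out and 1 at those limits. For the other class III peroxidases the lower count was 2 to 3 with 1 array left out and 1 at those limits. Their higher count, 4, was 2 to 3 with 1 array left out, 7 without the dimmest 40% of probe sets, 2 without the trend and 0 at those limits. Of all probe sets, 712 were lower, against 312 to 496 with 1 array left out, 374 without the trend, 371 by the analysis of variance and 182 at those limits. With the dimmest 40% left out 1002 were lower. The cause of these differences was not tested.

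Arrays of the same replicate number deviated from their genotype means with correlations of 0.176, -0.147 and 0.182. These values are small and mixed in sign, and they cannot show whether such arrays were handled together. With the replicate number as a block, 6 peroxidases, 5 root hair genes and 391 probe sets were lower, and 2 other peroxidases were higher. The arrays give no detection calls, so signal over background could not be set for dim genes.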
